A study of Rattus norvegicus with 6 samples.

Results

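The epithelial sodium channel (ENaC) and the mineralocorticoid axis that regulates it were described here through 10 genes. They are the channel subunits Scnn1a, Scnn1b and Scnn1g, the regulators Sgk1, Nedd4l and Prss8, the receptors Nr3c2 and Nr3c1, the enzyme Hsd11b2, and the glucocorticoid-induced leucine zipper gene Tsc22d3. A gene was taken when the name before the first colon of a row was exactly its symbol, and 9 of the 10 were found that way among 27321 features. Prss8 had no row of its own and was counted together with its neighbour Myst1.

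The tissue was the IM tip, the terminal part of the kidney inner medulla, and each library came from 1 of 6 male Sprague-Dawley rats of 3 months and about 150 g. The 3 Control rats received vehicle in the tail vein, and the 3 STZ rats received streptozotocin, a toxin of pancreatic beta cells that causes diabetes, at 62.5 mg/kg body weight by the same route. Kidneys were taken 15 days after the injection. The libraries held 4657450, 5575171 and 3412311 reads on features in Control replicates 1 to 3, and 5014659, 4475648 and 3963074 in STZ replicates 1 to 3.

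Values are normalized counts, that is, read counts of a gene divided by the authors' size factor for the library. A log2 fold change is the difference of group means of log2(normalized count + 1), STZ minus Control; adding 1 shrinks the changes of genes with few reads. A feature was called when its limma p adjusted over all features tested was under 0.05. The column headers give lane 3 for all Control libraries and lanes 7, 6 and 8 for STZ replicates 1, 2 and 3, and the 2 factors cannot be told apart.

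ENaC carries sodium from the urine into the cells of the collecting duct, and this step sets the final sodium content of the urine. Aldosterone binds the mineralocorticoid receptor, which raises transcription of the kinase Sgk1; Sgk1 phosphorylates the ubiquitin ligase Nedd4-2 and so slows removal of the channel from the apical membrane. Cortisol and corticosterone bind the same receptor, and Hsd11b2 inactivates them in the cells where aldosterone acts.

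Markers of collecting duct principal cells were present in every library, and most markers of cortical tubule segments had few reads or none. The principal cell list (Aqp2, Aqp3, Aqp4, Fxyd4 and Gata3) summed to 54596, 48057 and 32791 normalized counts in the Control libraries and to 81631, 42631 and 63049 in the STZ libraries. Fxyd4, a regulator of the sodium pump, was its most abundant gene, none of the 5 genes was called, and the sums overlapped. The distal convoluted tubule list, led by Trpm6, summed to between 42.0 and 93.4 in the 6 libraries and its marker Pvalb had no read in any of them. Trpm6 itself was measured in every library, at 30.8, 38.9 and 42.3 normalized counts in Control and 53.9, 50.4 and 72.3 in STZ, with groups that did not overlap and a log2 fold change of 0.64 (95% interval 0.08 to 1.19, limma adjusted p = 0.256). Calb1 of the same list lay the other way, below every control in each STZ library, at 6.15, 12.2 and 15.6 in Control and 2.79, 5.93 and 6.02 in STZ (log2 fold change -1.03, 95% interval -2.29 to 0.23, limma adjusted p = 0.455). Control replicate 1 and STZ replicates 2 and 3 had 6 reads of Calb1 each, so only the size factors set them apart. In STZ replicate 3 Calb1 was under the olfactory receptor level used below as a gauge of background (9.03). Slc12a3 of this list had a log2 fold change of -0.50 with overlapping groups. The 3 proximal tubule genes with a row of their own, led by Slc22a6, summed to 14.4, 38.9 and 63.4 in Control and 17.6, 33.6 and 59.2 in STZ. The sum was lowest in replicate 1 and highest in replicate 3 of both groups. Slc34a1 and Slc5a2 of this list were counted only in merged features, at 76.3 to 255 and 34.1 to 57.9 normalized counts. Both merged features overlapped between groups, and the values of the 2 genes themselves are uncertain.

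Markers of several other cell types moved with the treatment. Over all features tested, 1.17% were called higher and 0.927% lower in STZ. Of 6 intercalated cell genes 5 could be tested and 4 of them were called lower (Slc4a1, Atp6v1b1, Atp6v0d2 and Atp6v1g3). Their list, led by Atp6v1g3, summed to 2607, 1150 and 1356 in the Control libraries and to 531, 459 and 463 in the STZ libraries. Endothelial markers Emcn and Plvap fell too, and the 5 genes of that list, led by Emcn, summed to 9081, 6987 and 7439 in Control and 3940, 3990 and 3600 in STZ. Both lists were thus lower in every STZ library than in any Control library. Of the 5 endothelial genes 4 were below every control in each STZ library, beside 10.3% of all features. Pecam1, the other gene, overlapped with a log2 fold change of 0.04. In the urothelium list Upk3a and Upk1b rose, and its sum, led by Upk3a, was 112, 85.4 and 132 in Control against 440, 517 and 475 in STZ. Umod, a thick ascending limb marker, fell with a log2 fold change of -2.93 (SE 0.37, limma adjusted p = 0.00353), while the sum of its list, led by Cldn10, overlapped between groups. Slc12a1 of the same list, named after its values were seen, had 636, 641 and 691 normalized counts in Control and 463, 230 and 123 in STZ (log2 fold change -1.47, limma adjusted p = 0.0732; called in 6 of 18 alternatives, among them the fit without STZ replicate 1, -1.95 with limma adjusted p = 0.00444). No other fit with 1 library left out called Slc12a1. In all, 2 of the 3 thick ascending limb genes were below every control in each STZ library, beside 10.3% of all features. Cldn10, the most abundant of the 3, overlapped with a positive log2 fold change of 0.25 (0.12 to 0.45 with 1 library left out). Pdgfra of the interstitial and mural list rose, and that list, led by Dcn, overlapped in its sum, as did the leukocyte list, led by Csf1r. Fewer cells of a type and less RNA per cell cannot be told apart in such bulk libraries, and the part of these shifts in the values given next was not tested. The call of Slc4a1 was lost when any 1 library was left out (limma adjusted p 0.0533 to 0.107), and those of Upk1b (0.0807 to 0.204), Plvap (0.0618 to 0.134) and Pdgfra (0.0706 to 0.173) when any but Control replicate 3 was. Without STZ replicate 2, Atp6v0d2 and Atp6v1g3 were no longer called (limma adjusted p = 0.0550 and 0.0693). Upk3a, with a log2 fold change of 3.30 (SE 0.25, limma adjusted p = 0.000117), was called in all 18 alternatives, and without an intensity trend in the fit it was the only one of the 10 called markers that was. Equal library totals and a minimum mean of 1 also ended the call of Upk1b (limma adjusted p = 0.0768 and 0.0607).

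**Figure D1:**
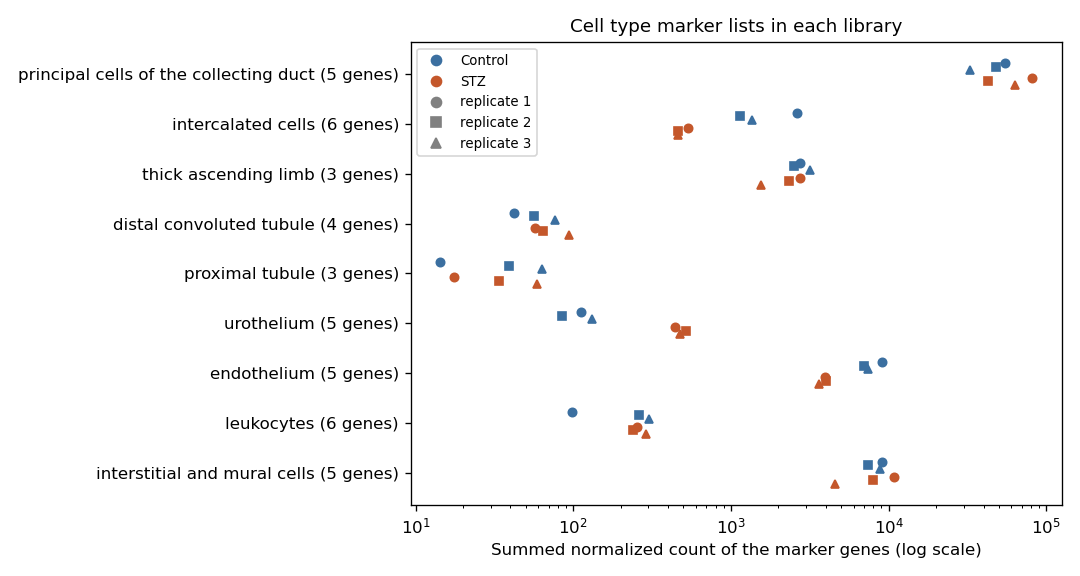
Summed normalized counts of 9 cell type marker lists in each library, on a log axis, with colour for the group and shape for the replicate number. The intercalated cell sums of the STZ libraries lie between 459 and 531, below the lowest Control sum of 1150, and the urothelium sums lie above those of Control.

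Among the 9 genes of the axis found as rows, 0 were called by limma, against 2.10% of the 13486 features tested (283 called, 1.17% higher and 0.927% lower in STZ). At an unadjusted p under 0.05 the count was 4 of 9, beside 14.7% of all features, and edgeR and DESeq2 on the recovered reads called 0 of 9 as well, beside 2.13% (287 features) and 3.97% (535 features) of all. The ENaC subunits Scnn1b and Scnn1g had higher counts in every STZ library than in any Control library, whereas Nr3c2, Nr3c1, Hsd11b2 and Tsc22d3 had lower counts in every STZ library. That makes 6 of 9 genes whose groups did not overlap, 2 above and 4 below, while among all features 20.3% did not overlap, 10.1% above and 10.3% below. The median log2 fold change of the 9 genes was 0.07 and that of all features tested was 0.01. The number of called features depended on single libraries: it was 182 without Control replicate 1, 101 without Control replicate 2, 352 without Control replicate 3, 141 without STZ replicate 1, 88 without STZ replicate 2 and 163 without STZ replicate 3, and the count among the 9 genes was 0 each time.

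**Figure D2:**
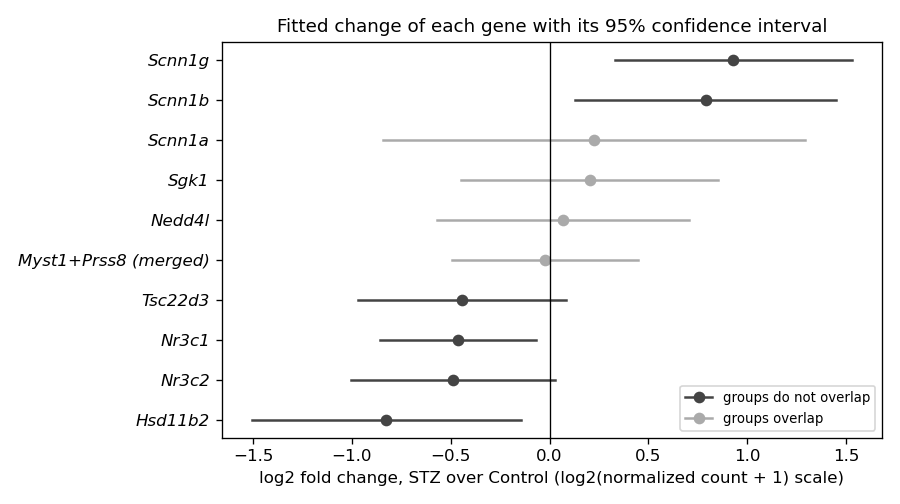
Fitted log2 fold change of each gene, STZ over Control, with its 95% confidence interval from limma; dark points mark genes whose 3 Control and 3 STZ libraries do not overlap. Scnn1g (0.93) and Scnn1b (0.79) lie highest and Hsd11b2 (-0.83) lowest, and none passed the threshold over all features.

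Scnn1g encodes the gamma subunit of the channel and lies at chr1:180555659-180589534 of rn4. Its normalized counts were 85.1, 64.1 and 109 in the Control libraries and 201, 184 and 113 in the STZ libraries. The groups did not overlap, but only just, since STZ replicate 3 lay next to Control replicate 3 while the other 2 STZ libraries were well above all controls. The means were 86.1 ± 22.5 and 166 ± 46.3 (SD, n = 3 each), the log2 fold change was 0.93 with a 95% interval of 0.33 to 1.53, and the limma adjusted p was 0.120. Scaling the libraries to equal totals made the groups overlap.

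Scnn1b, the beta subunit gene, lies on the same chromosome at chr1:180716083-180748068, with 126548 bases between the 2 features. Its normalized counts were 22.6, 16.0 and 21.1 in Control and 45.5, 29.7 and 31.1 in STZ. Every STZ library was above every Control library, and STZ replicate 1 was the highest. The log2 fold change was 0.79 with a 95% interval of 0.13 to 1.45 and a limma adjusted p of 0.235, from 19.9 ± 3.44 in Control and 35.4 ± 8.75 in STZ (SD, n = 3 each).

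Scnn1a, which encodes the alpha subunit that the channel needs for activity, lies at chr4:161445935-161469264 and had few reads, between 6 and 13 a library. Its normalized counts were 6.15, 9.15 and 8.90 in Control and 6.50, 12.9 and 10.04 in STZ. The groups overlapped, with the lowest value of each group in its replicate 1. The log2 fold change was 0.22 with a 95% interval of -0.84 to 1.29 (limma adjusted p = 0.915). With 1 library left out the value lay between 0.02 (without STZ replicate 2) and 0.47 (without STZ replicate 1), so the difference was not measured closely. As a gauge of background, 95% of 835 olfactory receptor genes lay at or under 2.05, 6.33 and 10.02 normalized counts in Control replicates 1 to 3 and 1.86, 5.93 and 9.03 in STZ replicates 1 to 3. Scnn1a was above the level of its own library in 5 of 6, all but Control replicate 3. This background was lowest in replicate 1 of both groups, where Scnn1a was lowest too, and its part in the values of Scnn1a was not tested.

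Ratios of 2 genes were taken within each library; their size also holds the lengths of the 2 genes, so only their difference between groups is compared. Differences of log2 ratios were computed with 1 added to each normalized count, which leaves a small effect of scaling. The ratio of reads, with nothing added, for Scnn1g to Scnn1b was 3.77, 4.00 and 5.16 in Control and 4.41, 6.20 and 3.65 in STZ. The groups overlapped, and the log2 ratio with 1 added differed by 0.14 (exact permutation test, two-sided, p = 0.7; smallest p possible 0.1). Relative to Scnn1a, the log2 ratio differed by 0.56 for Scnn1b (exact p = 0.5) and by 0.71 for Scnn1g (exact p = 0.3), and both overlapped. Leaving out 1 library moved these differences widely, to between 0.13 and 0.88 for Scnn1b and between 0.31 and 0.995 for Scnn1g. For the 6 ratios tested in all, every exact p adjusted by the Benjamini-Hochberg method was 1. Without STZ replicate 2 the difference for Scnn1g to Scnn1b, with 1 added, was -0.06. With nothing added, a choice made after the data were seen, the differences were 0.12 for Scnn1g to Scnn1b, 0.57 for Scnn1b to Scnn1a and 0.69 for Scnn1g to Scnn1a.

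Because Scnn1b and Scnn1g are neighbours and had their higher counts in the same libraries, their promoter windows are shown for comparison. RefSeq windows of 300 bases around gene starts (GRCr8) matched 6 of the 10 genes, with 11 windows in all; Scnn1a, Prss8, Nr3c2 and Hsd11b2 had none. Capitals mark, on either strand, GGGCGG (a GC box; reverse CCGCCC) and TGACTCA (an AP-1 site; reverse TGAGTCA), and the corticosteroid receptor half-site TGTTCT (reverse AGAACA) was searched too.
Scnn1g, chr1:185735975-185736274, plus strand: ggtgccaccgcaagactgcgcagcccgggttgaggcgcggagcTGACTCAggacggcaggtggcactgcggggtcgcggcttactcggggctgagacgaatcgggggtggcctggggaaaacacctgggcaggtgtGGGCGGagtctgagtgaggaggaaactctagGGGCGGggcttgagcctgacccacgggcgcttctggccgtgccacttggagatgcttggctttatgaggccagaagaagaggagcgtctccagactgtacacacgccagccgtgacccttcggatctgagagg
Scnn1b, chr1:185861126-185861425, plus strand: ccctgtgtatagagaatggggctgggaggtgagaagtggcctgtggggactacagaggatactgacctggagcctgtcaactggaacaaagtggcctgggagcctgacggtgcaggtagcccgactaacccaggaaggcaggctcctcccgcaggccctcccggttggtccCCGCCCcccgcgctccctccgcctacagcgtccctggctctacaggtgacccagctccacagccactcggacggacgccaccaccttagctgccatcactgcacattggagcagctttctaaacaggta
The Scnn1g window held 2 GC boxes and 1 AP-1 site, and the Scnn1b window held 1 GC box. GC box letters were in 9 of the 11 windows, beside 33.1% of 33469 windows of all genes, and AP-1 letters in 2 of 11, beside 4.63%. The half-site letters were in 0 of 11 windows and in 20.7% of all windows.

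**Figure D3:**
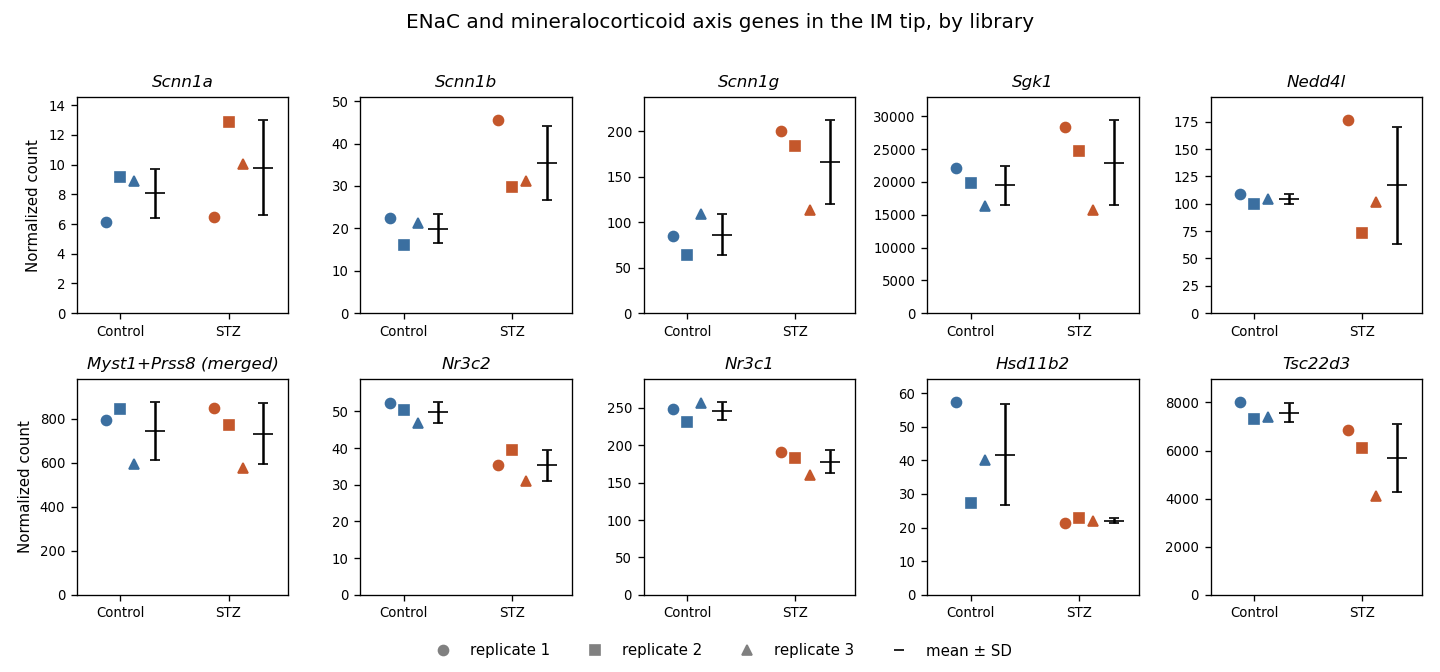
Normalized counts of the 10 genes in each library on linear axes that start at 0, with shape for the replicate number and the mean ± SD beside each group; Prss8 is shown as the merged feature with Myst1. Scnn1b and Scnn1g lie higher in the STZ libraries, Nr3c2, Nr3c1, Hsd11b2 and Tsc22d3 lie lower, and the other 4 overlap.

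Sgk1, the kinase that links the receptor to the channel, lies at chr1:23501261-23587417 and took between 0.395% and 0.608% of all reads on features. Control libraries had 22188, 19897 and 16328 normalized counts and STZ libraries had 28302, 24711 and 15731. STZ replicates 1 and 2 were above all controls and STZ replicate 3 was below all of them, so the groups overlapped. The log2 fold change was 0.20 with a 95% interval of -0.45 to 0.85 (limma adjusted p = 0.859). It was 0.03 without STZ replicate 1 and 0.45 without STZ replicate 3, and quantile normalization turned its sign (-0.09).

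Nedd4l encodes Nedd4-2, the ligase that marks ENaC for removal, and lies at chr18:61134241-61477040. The libraries had 109, 99.9 and 105 normalized counts in Control and 176, 73.2 and 101 in STZ. The Control libraries were close together, with a coefficient of variation of 4.19%, whereas STZ replicate 1 lay above and STZ replicate 2 below all of them, which gave 45.6%. Its fitted log2 fold change was 0.07 with a 95% interval of -0.57 to 0.70 (limma adjusted p = 0.964), and it was -0.27 without STZ replicate 1. The log2 ratio of Sgk1 to Nedd4l, with 1 added, differed by 0.13 between groups (exact permutation test, two-sided, p = 0.9) and by -0.23 without STZ replicate 2.

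Prss8 encodes prostasin, a membrane-anchored protease that activates the channel, and its reads could not be separated from those of Myst1, a histone acetyltransferase gene. The merged feature, chr1:187198681-187215072, had 795, 844 and 593 normalized counts in Control and 849, 770 and 578 in STZ. The groups overlapped, with replicate 3 lowest in both. Its log2 fold change was -0.02 with a 95% interval of -0.49 to 0.45 (limma adjusted p = 0.979), and the sign turned without Control replicate 1 (0.03), Control replicate 2 (0.07) or STZ replicate 3 (0.14). A value for Prss8 itself is therefore uncertain.

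Nr3c2, the mineralocorticoid receptor gene at chr19:32530203-32875369, had normalized counts of 52.3, 50.3 and 46.7 in Control and 35.3, 39.6 and 31.1 in STZ. Every STZ library was below every Control library, and the spread within each group was small, 2.81 and 4.22 (SD, n = 3 each). STZ over Control, this was a log2 fold change of -0.49 with a 95% interval of -1.01 to 0.03 and a limma adjusted p of 0.372.

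Nr3c1 encodes the glucocorticoid receptor and lies at chr18:32371495-32459145. It had 249, 232 and 256 normalized counts in Control and 191, 183 and 161 in STZ. The groups did not overlap, and the gap between them was wider than the range within either. The means were 246 ± 12.4 and 178 ± 15.9 (SD, n = 3 each), and the log2 fold change was -0.46 with a 95% interval of -0.86 to -0.07 (limma adjusted p = 0.242). The ratio of Nr3c2 to Nr3c1 reads was 0.210, 0.217 and 0.183 in Control and 0.184, 0.216 and 0.194 in STZ. These ratios overlapped between the groups, and the log2 ratio with 1 added differed by -0.03 (exact permutation test, two-sided, p = 1), a difference whose sign turned without Control replicate 2 or STZ replicate 1 (0.02 each).

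Hsd11b2, the enzyme that inactivates corticosterone, lies at chr19:35336341-35341585. Its normalized counts were 57.4, 27.5 and 40.1 in Control and 21.4, 22.7 and 22.1 in STZ. The STZ libraries were nearly equal (SD 0.697), the Control libraries were spread (SD 15.0), and the lowest Control library was still above the highest STZ library. Fitted over all features, the log2 fold change was -0.83 with a 95% interval of -1.51 to -0.14 (limma adjusted p = 0.228). Relative to Nr3c2, the log2 ratio with 1 added differed by -0.34 and overlapped (exact permutation test, two-sided, p = 0.4), with a range of -0.61 (without Control replicate 2) to -0.11 (without Control replicate 1) when 1 library was left out. Hsd11b1, the enzyme that acts in the opposite direction, named after its values were seen, had a log2 fold change of 0.21 with a 95% interval of -0.37 to 0.79 and overlapping groups (limma adjusted p = 0.823), and lay between 0.06 and 0.43 with 1 library left out.

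Tsc22d3 encodes GILZ, a transcript induced by glucocorticoids and aldosterone, and lies at chrX:128336417-128394559. Control replicates 1 to 3 had 8023, 7300 and 7387 normalized counts and STZ replicates 1 to 3 had 6843, 6089 and 4127. All STZ libraries were below all controls, with STZ replicate 3 the lowest by far. Its fitted log2 fold change was -0.44 with a 95% interval of -0.97 to 0.08 (limma adjusted p = 0.438), and it was -0.23 without STZ replicate 3.

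The water channel Aqp2, a principal cell marker, had 2865, 3641 and 2137 normalized counts in Control and 7413, 3824 and 4501 in STZ (log2 fold change 0.84, 95% interval 0.21 to 1.47, limma adjusted p = 0.180; called by DESeq2 alone among 18 alternatives, adjusted p = 0.0401). Each gene was also expressed per 1000 normalized counts of Aqp2 in the same library, a description chosen after the data were seen and given without a test. Scnn1g was then 29.7, 17.6 and 51.0 in Control and 27.1, 48.1 and 25.2 in STZ. Scnn1b was 7.87, 4.40 and 9.90 in Control and 6.14, 7.76 and 6.91 in STZ. The log2 differences on this scale were 0.10 and -0.02, which says only that both subunits and Aqp2 differed between groups by similar factors. The division takes the difference of Aqp2 itself from every gene alike, so the signs and sizes on this scale are no finding about the other genes. Other principal cell genes had log2 fold changes of 0.91 (Aqp3), 0.30 (Fxyd4), 0.26 (Gata3) and 0.12 (Aqp4, -0.01 without Control replicate 3). With 1 library left out Aqp3 lay between 0.56 and 1.19 and Gata3 between 0.15 and 0.35.

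The wider pathway was described with 5 lists of 64 genes, of which 52 matched a row by name or older name, 6 only a merged feature and 6 none, and 47 were tested. Called genes numbered 1 of 47, and it was lower in STZ, a share near the 2.10% of all features. By list, that was 1 of 7 proteases acting on ENaC and their inhibitors, 0 of 15 ubiquitin, kinase and trafficking regulators, 0 of 11 genes of the steroid receptor machinery, 0 of 12 transcripts induced by corticosteroids, and 0 of 2 sodium exit and potassium partners. The groups did not overlap for 11 of the 47 genes, beside 20.3% of all features, and the median log2 fold change of the 47 was 0.11, beside 0.01. At an unadjusted p under 0.05 the number was 4 of 47, beside 14.7% of all features. edgeR called 2 (2.13% of all features) and DESeq2 called 4 (3.97%).

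Serpine2, which encodes protease nexin-1, an inhibitor of prostasin, was the called gene and lies at chr9:79091424-79166330. Its normalized counts were 193, 326 and 137 in Control and 52.9, 58.4 and 52.2 in STZ. It fell in all 3 STZ libraries, which were tightly grouped, far below the lowest control. The log2 fold change was -1.89 (SE 0.29, limma adjusted p = 0.00858), and the call was lost when the prior variance had no intensity trend (0.110). In the same list Furin, the protease that cleaves the alpha and gamma subunits, had 301, 322 and 292 normalized counts in Control and 669, 422 and 563 in STZ. Furin, named after its values were seen, was above all controls in each STZ library, with a log2 fold change of 0.83 (95% interval 0.38 to 1.27, limma adjusted p = 0.0651), and 5 of 18 alternatives called it. Klk1, a kallikrein listed under an older name, had a log2 fold change of -0.91 with overlapping groups (95% interval -2.38 to 0.57; -1.49 to -0.58 with 1 library left out). The inhibitor genes Spint1 and Spint2 lay the other way from Serpine2, each at 0.33 and not called. Spint1 overlapped, and Spint2 was above all controls in each STZ library. Of the 7 genes tested in this list 2 were above every control and 1 below, beside 10.1% and 10.3% of all features.

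Hsp90ab1, which encodes a chaperone that holds steroid receptors ready for hormone, had 10434, 9868 and 7645 normalized counts in Control and 5409, 4875 and 4474 in STZ. All STZ libraries were below all controls, the log2 fold change was -0.91 (95% interval -1.40 to -0.43, limma adjusted p = 0.0618), and 8 of 18 alternatives called it, among them the fit without Control replicate 3 (limma adjusted p = 0.0354). The other fits with 1 library left out did not call Hsp90ab1 (limma adjusted p 0.132 to 0.260). Hsp90aa1 of the same list overlapped, with a log2 fold change of -0.09 (95% interval -0.52 to 0.35). The groups did not overlap for 2 of the 11 genes tested in this list, beside 20.3% of all features. Nrip1, a receptor corepressor in the same list, overlapped (0.48, 95% interval -0.40 to 1.36; 0.11 to 0.73 with 1 library left out). Among the trafficking regulators, the deubiquitinase Usp2 (0.43, 95% interval -0.15 to 1.001; 0.23 to 0.61 with 1 library left out) overlapped, and Ywhae, a 14-3-3 protein gene, was higher in each STZ library (0.42, 95% interval -0.03 to 0.87).

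Of 12 transcripts induced by corticosteroids that were tested, 9 had positive and 3 negative log2 fold changes, beside 6814 positive and 6672 negative over all features. Their median log2 fold change was 0.32, beside 0.01 over all features. The groups did not overlap for 3 above (Fkbp5, Per1 and Angptl4) and 1 below (Ndrg2), beside 10.1% above and 10.3% below over all features. Ndrg2, an aldosterone-induced gene named after its values were seen, had 566, 466 and 444 normalized counts in Control and 343, 292 and 321 in STZ. Fkbp5, a target of the glucocorticoid receptor also picked after its values were seen, had 23.6, 24.4 and 28.9 in Control and 36.2, 36.6 and 34.1 in STZ. The log2 fold changes were -0.62 for Ndrg2 (limma adjusted p = 0.119; called in 3 of 18 alternatives) and 0.46 for Fkbp5 (limma adjusted p = 0.449). Angptl4, also named after its values were seen, had 293, 281 and 267 in Control and 335, 440 and 310 in STZ (log2 fold change 0.35, limma adjusted p = 0.443; 0.20 to 0.45 with 1 library left out). Per1, a clock gene induced by aldosterone, was higher in each STZ library at low counts, 5.13, 3.81 and 3.34 in Control and 8.36, 6.92 and 9.03 in STZ (0.85, 95% interval -0.42 to 2.11), and it was above the olfactory receptor level in 3 of 6 libraries. Edn1, which encodes endothelin-1, had 57.4, 36.6 and 69.0 in Control and 13.9, 6.92 and 158 in STZ. STZ replicate 3 was far above the other 2 STZ libraries, and the log2 fold change was -1.01 (limma adjusted p = 0.672) with it and -2.30 (limma adjusted p = 0.0307) without it. Leaving out STZ replicate 1 or 2 moved the value the other way, to -0.60 or -0.14, and edgeR and DESeq2 turned its sign (0.14 and 0.13). In the sodium exit list Fxyd4 (0.30, 95% interval -0.43 to 1.04; 0.11 to 0.57 with 1 library left out) and Slc12a3 (-0.50, 95% interval -2.31 to 1.32; -1.15 to 0.38 with 1 library left out) overlapped. The pump subunit gene Atp1b1 was counted only together with Nme7, and that merged feature had 2010, 1548 and 2088 normalized counts in Control and 3136, 3136 and 2689 in STZ. It was above every control in each STZ library, with a log2 fold change of 0.67 (95% interval 0.24 to 1.11, limma adjusted p = 0.120; called in 2 of 18 alternatives), a value that is uncertain for Atp1b1 itself.

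Single genes with a similar course over the 6 libraries were found by the root mean square difference of centred log2 values, among 8871 candidates (8872 for Scnn1a) with a mean of at least 20. Nearest to Scnn1b were Fam3c (0.0693), Hexim1 (0.0728) and Laptm4b (0.108). Nearest to Scnn1g were Sfrs2 (0.0995), E9PTV7_RAT (0.119) and F1LTC9_RAT (0.120). The 2 subunits differed from each other by 0.270, and 130 candidates lay nearer to Scnn1g and 360 nearer to Scnn1b than that. Sgk1 ran closest to Etfa (0.0645), Sh3yl1 (0.0649) and RGD1565486 (0.0680), and Scnn1a to Med12 (0.0520), Rasal2 (0.0793) and Rbm9 (0.0899). Med12, with 61.5, 93.1 and 91.3 normalized counts in Control and 63.1, 126 and 103 in STZ, had the same low replicate 1 in both groups as Scnn1a.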

How the data were processed

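Total RNA of the IM tip from 6 rats was sequenced as cDNA. Per the labels and the study's methods, the authors mapped reads to rn4 with STAR 2.3.1t, counted uniquely mapped reads per gene and deposited a signal table, counts divided by DESeq 1.16.0 size factors. Every value was a whole multiple of 1 step per library (100% within 0.01 reads), so reads were recovered. The table has 24074 single genes, 527 merged genes and 2720 regions between genes. Features with a mean of at least 5 were tested with limma 3.58.1 in R 4.3.3; normalized counts had 1 added and were taken to log2, group was the only term, the prior variance followed intensity, and the Benjamini-Hochberg adjustment ran over all tested features. edgeR 4.0.16 and DESeq2 1.42.0 were run on the recovered reads. The fits were tried on simulated reads, where limma recovered 79.0% of 195 features given a log2 change of 2 in either direction. Changes of the size fitted for the 9 genes of the axis (-0.83 to 0.93) were not simulated. Ratios used two-sided exact permutation tests over libraries. Alternatives were other pseudocounts, filters, scalings, moderation, the replicate block and each library left out. Use of strand in counting is not given in the sources used here, so antisense reads cannot be told apart. Named pathway and marker genes were those called, the most abundant marker of each list, and, in pathway lists with fewer than 2 calls, the 2 largest fold changes. Furin, Ndrg2, Fkbp5, Hsd11b1, Aqp2, Aqp3, Aqp4, Gata3, Slc12a1, Atp1b1, Angptl4, Calb1, Pvalb and Pecam1 were named after their values were seen, outside this rule. So were Hsp90aa1, Slc34a1, Slc5a2, Spint1 and Spint2. The genes of the axis and all lists were chosen with earlier results of these data known. The result of 1 marker list is not reported here. Intervals use limma's moderated variance, which joins a gene's spread between 3 rats a group with a prior from all tested features. They can therefore be wider or narrower than the spread of the gene's own values.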

Additional observations from a re-analysis of the deposited data

How the results depend on the processing

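None of the 9 genes of the axis was called by limma, edgeR or DESeq2 in any of 18 alternatives; the lowest adjusted p was 0.0559, for Scnn1g by DESeq2. Directions held in all of them for Scnn1a (17 alternatives), Scnn1b, Scnn1g, Nr3c2, Nr3c1, Hsd11b2 and Tsc22d3. Groups that did not overlap numbered 5 under equal library totals and 6 under quantile normalization, both scalings chosen for this count after seeing the data. The share over all features (20.3%) was computed for the main scaling only, so these counts have no share beside them. Called features numbered 522 after quantile normalization, 31 without an intensity trend, 535 by DESeq2, and 88 to 352 with 1 library left out. Called pathway genes numbered 3 at a minimum mean of 20, 2 with no filter, 3 under equal totals and 4 after quantile normalization. They numbered 0 without the trend, 2 with robust moderation, 2 by edgeR, 4 by DESeq2, and 1 to 2 with 1 library left out. Wherever more pathway genes were called than in the main fit, more features were called over all too, except without STZ replicate 3. The pathway counts alone thus do not tell a change of these lists from one of all features.

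Signs turned for Sgk1 after quantile normalization (-0.087), and with 1 library left out for Nedd4l (-0.27 to 0.36), the Myst1+Prss8 feature (-0.18 to 0.14), Aqp4 (-0.0090 to 0.32), Slc12a3 (-1.15 to 0.38), Slc22a6 (-0.91 to 0.020), Csf1r (-0.30 to 0.54) and Dcn (-0.70 to 0.041). Edn1 was 0.14 by edgeR and 0.13 by DESeq2. Relative to Aqp2, chosen after seeing the data, Scnn1a was -0.59, Scnn1b -0.019, Sgk1 -0.64 and Nedd4l -0.77, which follows from taking the difference of Aqp2 from each and tests nothing. The log2 ratios that turned were Nr3c2 to Nr3c1 (0.0077 at a pseudocount of 5, and -0.10 to 0.024 with 1 library left out), Scnn1g to Scnn1b (-0.065 to 0.31) and Sgk1 to Nedd4l (-0.23 to 0.33). With no pseudocount, added after seeing the data, all 6 ratios kept their sign. The causes were not tested.

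Control and STZ share replicate numbers, and deviations of same-numbered libraries correlated at 0.574, -0.015 and 0.496 (across 13486 features, which are not independent replicates). Control replicate 1 correlated at -0.487 with STZ replicate 3, and Control replicate 3 at -0.592 with STZ replicate 1. Control replicate 2 correlated at 0.005, -0.015 and 0.006 with STZ replicates 1 to 3, so it cannot show whether the numbers mark a shared batch. The labels name no such batch and the numbers were not taken as a pairing, but a shared batch was not tested. With the replicate block 561 features (283 without it), 3 pathway genes (1 without it) and 0 of the 9 genes of the axis were called. Among the genes of the axis Scnn1a had the fewest reads, 6 to 13 a library, and the pathway genes Per1 (3 to 9), Slc12a3 (1 to 17) and Klk1 (3 to 16) had as few or fewer in some libraries.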
